A study of Mus musculus with 10 samples.

Results

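RNA levels of 7 genes of the complement system (C1ra, C2, C3, C4b, C7, Cfb and Serping1) were followed in fibroblasts and tumor cells of the mouse mammary gland. The genes were taken by symbol from a table of 55486 genes, and each of the 7 symbols matched 1 row. The libraries came from 5 gels of collagen and basement membrane extract, each cultured for 7 days. Normal fibroblasts (NFs) had been sorted from mammary glands of mTmG mice aged 8 weeks, with several animals pooled per sort, by the surface protein CD26 into a negative (CD26-) and a positive (CD26+) subset. Per the study's methods, the cells sorted as fibroblasts were negative for the epithelial proteins EpCAM and CD49f, the immune protein CD45 and the endothelial protein CD31. In mTmG cells a red protein (Tomato) is replaced by a green one (GFP) once Cre recombinase has acted. CD26+ NFs had been made green with an adenovirus that carries Cre, and CD26- NFs stayed red without virus. Both subsets were mixed in equal numbers in gel 1 without tumor cells, and in gels 4 and 5 together with tumor cells. Gels 2 and 3 held tumor cells alone. The tumor cells were lines from end-stage lobular-type mammary tumors of mice in which WapCre, active in mammary epithelium, deletes floxed Cdh1. Line 13-MCB-17 was used in gels 2 and 4 and line 10-SJK-221 in gels 3 and 5, so a difference between gels 4 and 5 cannot be told apart from one between the lines. After culture, cells of each gel were sorted by color, which gave 10 libraries in 6 groups. CD26- NFs alone and CD26+ NFs alone had 1 library each, and the other 4 groups had 2 each.

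Complement is a set of plasma and tissue proteins that tag microbes and damaged cells for removal. In the classical pathway the C1 complex, with the proteases C1r and C1s, cuts C4 and C2, and the fragments form an enzyme that cuts C3, the protein on which all routes converge. In the alternative route factor B, encoded by Cfb, supplies the protease part of the enzyme that cuts C3. C7 is a link in the chain of terminal proteins that ends in the membrane attack complex. Serping1 encodes the C1 inhibitor, which stops C1r and C1s. The liver makes most plasma complement, and fibroblasts and epithelia are known local sources. C3 is used as a marker of inflammatory fibroblasts.

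Libraries held 14142334 to 18408940 counts. A count of 0 allows up to 3 counts, or 0.163 to 0.212 CPM (counts scaled by the total of the library) depending on the library, and such limits cover counting error only. Dpp4, which encodes CD26, had 0 or 1 count in CD26- NFs and 4 to 12 counts in CD26+ NFs, so the label of the sort was visible but low in these cultured cells. Cdh1 had 140 to 269 CPM in tumor cells and 0 counts in NFs alone, and counts per gene do not show whether its floxed part was gone. All 8 fibroblast markers on the list used were present in every NF library, summing to 74846 and 69497 CPM alone and to 23317 to 41536 CPM in co-culture, and all 8 epithelial markers in every tumor library (summed 3909 to 5182 CPM). The epithelial markers summed to 0.807 and 1.12 CPM in NFs alone but NFs sorted from gels with tumor cells had 115 to 317 CPM of them, which was 2.75% to 6.52% of the tumor library of the same gel. The fibroblast markers summed to 38.7 and 71.7 CPM in tumor cells alone and to 107 and 177 CPM in co-cultured tumor cells, 0.301% and 0.578% of the NFs of the same gel. The 8 immune markers summed to 13.5 to 74.2 CPM in NFs and to 61.9 to 313 CPM in tumor cells, where Cd68 was most of it (34.8 to 299 CPM), while Ptprc, Adgre1 and Tyrobp had 0 to 2 counts in every library. NFs alone came from 1 gel, so tumor cells and the gel cannot be told apart as the source of a difference between cultures, and an effect of subset cannot be told apart from exposure to virus.

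Of the 7 genes, 4 lie on chromosome 17 of GRCm38. C4b (34728380 to 34743882), Cfb (34856374 to 34862518) and C2 (34862604 to 34898265) are neighbors there, and C3 lies farther along (57203970 to 57228136). C1ra is on chromosome 6 (124512405 to 124523443), C7 on chromosome 15 (4988762 to 5063740) and Serping1 on chromosome 2 (84765387 to 84775444). C1ra is on the plus strand and the other 6 genes are on the minus strand. In the GENCODE M21 annotation 79.5% of the exon bases of Cfb and 46.9% of those of C2 also belong to Gm20547, a gene on the same strand that runs through both and was at 0 counts in all libraries. How such shared bases were counted is not given in the sources used here, so the levels of Cfb and C2 are uncertain. C1ra and C4b each have a near-identical neighbor (C1rb and C4a), between which reads may have been divided.

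C3 rose in CD26- NFs in co-culture and C7 fell furthest of the 7 genes, so the 250 bases before their RefSeq start sites (GRCm38.p6, minus strand) are shown. Capitals mark matches to motifs of factors known to act on acute-phase and interferon-response genes, and to the TATA motif TATAAA.
C3, chr17:57228137-57228386: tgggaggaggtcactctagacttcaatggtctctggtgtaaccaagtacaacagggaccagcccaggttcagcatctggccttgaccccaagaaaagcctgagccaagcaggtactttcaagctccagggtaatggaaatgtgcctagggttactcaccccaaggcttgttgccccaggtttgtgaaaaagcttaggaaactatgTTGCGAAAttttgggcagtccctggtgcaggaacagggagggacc
C7, chr15:5063774-5064023: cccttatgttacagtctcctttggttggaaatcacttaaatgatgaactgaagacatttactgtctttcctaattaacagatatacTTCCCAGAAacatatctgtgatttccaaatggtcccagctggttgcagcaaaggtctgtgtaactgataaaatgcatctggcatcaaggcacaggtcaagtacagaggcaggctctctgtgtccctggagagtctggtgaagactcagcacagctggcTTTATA
In C3 the capitals are TTGCGAAA, a match to the C/EBP motif TTGCNNAA at bases -45 to -38 from the start. In C7 they are TTCCCAGAA, a match to the STAT motif TTCNNNGAA at -164 to -156, and TTTATA at -6 to -1. The latter is TATAAA read on the other strand, and it is not taken as a TATA box of this start. Among 32851 mouse promoter windows of this length, searched on both strands, TTGCNNAA was found in 9.56%, TTCNNNGAA in 7.02% and TATAAA in 12.4%. The interferon-stimulated response element, found in 2.98% of windows, and the NF-kB motif, found in 7.25%, had no match in either window. The window of C1ra held no match to the 5 motifs and overlaps the annotated gene, so its sequence is not shown. Promoter windows of the other 4 genes were not analysed here. A match describes letters only and is not evidence of binding.

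The 7 genes divided by cell type. Tumor cells held mostly C3, at 3212 and 3971 CPM alone and at 1506 and 1537 CPM in co-culture. In each NF library Serping1 was the highest of the 7 genes, at 1284 to 2699 CPM, and C3 was lower, at 258 to 861 CPM. C4b, C7, C2 and C1ra were higher in NFs alone than in any other group, and Cfb was below 1 CPM in every library. Levels of different genes were compared per kilobase of exon (CPM per kb). In CD26- NFs alone the order was Serping1 (922), C1ra (56.2), C4b (54.3), C3 (50.1), C7 (37.8), C2 (6.83) and Cfb (0.33 CPM per kb). In CD26+ NFs alone it was Serping1 (552), C3 (147), C4b (105), C7 (54.7), C1ra (46.7), C2 (5.26) and Cfb (0.348 CPM per kb). The spread of these single libraries is unknown. In the 4 co-cultured NF libraries Serping1 (718 to 1161 CPM per kb) was above C3 (118 to 167) and C3 above C1ra (7.91 to 11.7). The ranges of C4b (0.692 to 2.64), C2 (0.684 to 1.63) and C7 (0.151 to 0.925 CPM per kb) overlapped, as did those of C7 and Cfb (0 to 0.205). In tumor cells alone C3 stood at 625 and 772 CPM per kb and C1ra followed at 4.77 and 5.68, with the other 5 genes under 1. In co-cultured tumor cells the order again began with C3 (293 and 299 CPM per kb), C1ra (7.25 and 9.77) and Serping1 (1.57 and 2.97).

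**Figure D1:**
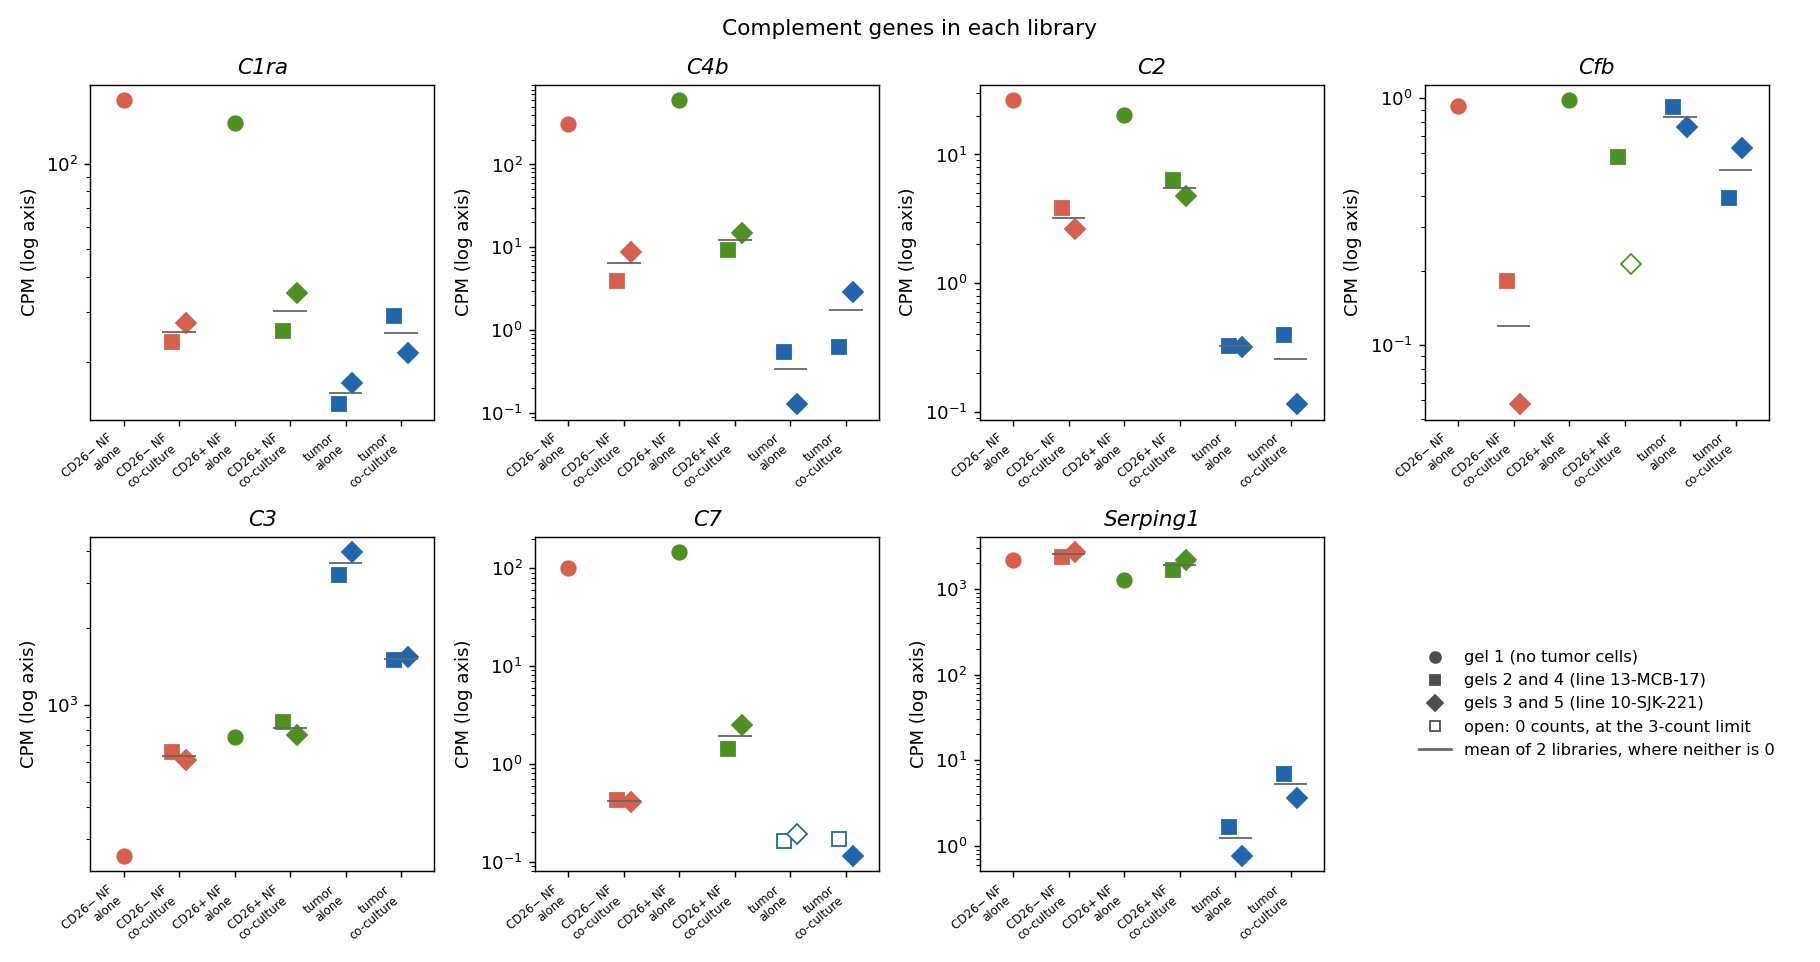
Scaled counts (CPM, log axis, with its own range per gene) of the 7 complement genes in each of 10 libraries, by cell type and culture; circles are gel 1, squares gels 2 and 4, diamonds gels 3 and 5, open symbols are counts of 0 drawn at the 3-count limit, and lines are means of 2 libraries. C4b and C7 fell from 309 and 101 CPM in CD26- NFs alone to under 9 and under 0.5 CPM in co-culture, while C3 was highest in tumor cells alone (3212 and 3971 CPM).

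When NFs alone were compared with tumor cells alone, 5 of the 7 genes were higher in NFs, C3 was lower and Cfb was not called, beside 55.5% of all 17048 genes tested called in either direction and 28.4% called higher. Differences are log2 fold changes from edgeR's quasi-likelihood test with their standard errors (SE) and Benjamini-Hochberg adjusted p-values, with a call at an adjusted p under 0.05. Serping1 was 1400-fold higher in NFs by mean CPM (log2 difference 10.50, SE 0.53, adjusted p = 1.5e-06). C4b was 1352-fold higher (10.36, SE 0.85, adjusted p = 2.0e-05), with 10 and 2 counts in the tumor libraries. C7 had 0 counts in both tumor libraries alone, so NFs were at least 699-fold higher by the 3-count limit per library. C2 was 72.7-fold higher (6.26, SE 0.46) and C1ra 9.85-fold higher (3.43, SE 0.25), both with an adjusted p of 1.0e-05, and C2 had 6 and 5 counts in the tumor libraries. C3 was 7.09-fold higher in tumor cells than in NFs (log2 difference -2.89, SE 0.17, adjusted p = 3.4e-06). Cfb had 15 and 14 counts in NFs alone and 17 and 12 counts in tumor cells alone, which did not differ beyond error (0.30, SE 0.85, adjusted p = 0.79). All of these calls held when any one of gels 2 to 5 was left out.

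Within the shared gels 4 and 5 the distance between cell types was smaller for most of the genes. Here 4 genes were higher in NFs, 1 was lower and 2 were not called, beside 51.8% of 17048 genes called in either direction and 27.7% called higher. Serping1 was 419.7-fold higher in NFs (8.90, SE 0.48, adjusted p = 2.6e-06) and C2 17.2-fold (4.20, SE 0.44, adjusted p = 9.0e-05), with 7 and 2 counts of C2 in the tumor libraries. C4b was 5.35-fold higher (2.56, SE 0.60, adjusted p = 0.0075). C7 in NFs was 6.92-fold above the 3-count limit of the tumor libraries, which had 0 and 2 counts. A count of 2 allows more than 3, so this fold is no lower bound. C1ra did not differ beyond error, at 23.6 to 35.0 CPM in NFs and 21.6 and 29.1 CPM in tumor cells (0.34, SE 0.20, adjusted p = 0.19). C3 was 2.10-fold higher in tumor cells (-0.89, SE 0.14, adjusted p = 0.00082). In these gels NF libraries held 2.75% to 6.52% of the epithelial marker level of tumor cells. Tumor libraries held 0.301% and 0.578% of the fibroblast marker level of NFs. That share multiplied by the Serping1 level of NFs came to 11.6 and 7.30 CPM, beside 6.90 and 3.65 CPM measured in tumor cells. The part of such carry-over in the smaller distances was not tested. Without gel 4 the calls of C3 (adjusted p = 0.078), C4b (0.065) and C7 (0.051) were lost, and without gel 5 that of C3 (0.11).

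In NFs co-cultured with tumor cells the classical pathway genes C1ra, C4b and C2 and the terminal gene C7 fell in both subsets, while C3 rose in CD26- NFs and Serping1 was not called. Over both subsets 4 of the 7 genes were lower and 1, C3, was higher, beside 48.8% of 15013 genes called in either direction and 22.9% called lower. Taken within CD26- NFs the background was 30.8% of 16231 genes (14.1% lower), and within CD26+ NFs 34.2% (15.2% lower). The same 4 genes were lower in each subset. Since each subset alone was 1 library, the tests within a subset took its spread from the co-cultured groups. In such bulk libraries a smaller share of expressing cells and less RNA per cell cannot be told apart. Of the 8 fibroblast markers 4 were lower in co-culture over both subsets, beside 22.9% of all genes. These were Col1a1, Col1a2, Col3a1 and Pdgfra, from -0.50 for Pdgfra to -1.95 for Col3a1 on the log2 scale. Dcn and Thy1 were higher and 2 were not called, and the median of the 8 was -0.45. Col1a2 and Col3a1 were called lower in each subset, Col1a1 in CD26+ NFs only and Pdgfra in neither. The part of these marker changes in the falls of the complement genes was not tested.

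C7 fell furthest. It had 101 CPM in CD26- NFs alone and 0.424 and 0.403 CPM in co-culture, and 146 CPM in CD26+ NFs alone and 1.41 and 2.47 CPM in co-culture. All 4 co-cultured libraries were far below both libraries of NFs alone, and the mean fell 105-fold (log2 fold change -6.82, SE 0.30, adjusted p = 3.3e-07). Co-cultured CD26- NFs held 7 counts of C7 in each library, close to the limit of detection. C4b, the mouse gene for complement C4, fell 48.8-fold (-5.55, SE 0.28, adjusted p = 8.4e-07). Its levels were 309 CPM in CD26- NFs alone against 3.94 and 8.86 CPM in co-culture, and 598 CPM in CD26+ NFs alone against 9.31 and 15.1 CPM. C4b fell in both subsets, by a log2 fold change of -5.51 (SE 0.37) in CD26- and -5.58 (SE 0.37) in CD26+ NFs, and the difference between them did not pass the test (difference -0.068, SE 0.52, adjusted p = 1.0, 95% interval -1.19 to 1.05).

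C1ra, which encodes C1r, and C2, the partner of C4 in the classical enzyme, fell less. C1ra went from 168 to 23.6 and 27.5 CPM in CD26- NFs and from 139 to 25.9 and 35.0 CPM in CD26+ NFs. The mean fell 5.49-fold (-2.41, SE 0.17, adjusted p = 5.3e-06), with no overlap between cultures. C2 went from 26.5 to 3.82 and 2.65 CPM in CD26- NFs and from 20.4 to 6.30 and 4.74 CPM in CD26+ NFs. Its mean fell 5.35-fold (-2.43, SE 0.26, adjusted p = 6.7e-05). All 4 falls kept their calls without gel 4, without gel 5, under other scalings and filters and with DESeq2. Cfb had 15 and 14 counts in NFs alone and 3, 9, 1 and 0 counts in co-culture, which did not pass the test (-2.19, SE 0.85, adjusted p = 0.056).

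C3, the central component, rose in CD26- NFs. It went from 258 CPM alone to 660 and 609 CPM in co-culture (1.36, SE 0.23, adjusted p = 0.00043). In CD26+ NFs it had 755 CPM alone and 861 and 765 CPM in co-culture (0.14, SE 0.21, adjusted p = 0.63, 95% interval -0.31 to 0.60). The rise in CD26- NFs rests on the single library alone, which was the one low value of the 6 and has no replicate. The difference between these responses was -1.22 (SE 0.30), which was not called without pairing of the gels (adjusted p = 0.14) and was called with gel as a replicate block (0.003) and with DESeq2 (0.0052). None of the 7 genes passed the test for a different response of the subsets, beside 0.376% of 16231 genes, and of the 7, C3, C7 (1.64, SE 0.50, adjusted p = 0.29) and C2 (1.13, SE 0.41, adjusted p = 0.47) had an unadjusted p under 0.05. With the block C7 was called as well (adjusted p = 0.037). Over both subsets C3 was higher in co-culture (0.70, SE 0.25, adjusted p = 0.0396), a call lost without gel 4 (0.079) or gel 5 (0.078). The share of epithelial markers multiplied by the C3 level of the tumor cells in the same gel came to 41.4 and 43.9 CPM for the CD26- NFs and to 61.8 and 100.2 CPM for the CD26+ NFs of gels 4 and 5, and from single markers to at most 147 and 141 CPM and 192 and 272 CPM. Less the amounts from the marker sum, C3 was at 618 and 565 CPM in CD26- and at 799 and 665 CPM in CD26+ NFs, and the part of tumor cells in these levels was not tested.

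Serping1 kept a high level. CD26- NFs had 2143 CPM alone and 2340 and 2699 CPM in co-culture, and CD26+ NFs had 1284 CPM alone and 1670 and 2146 CPM in co-culture. Each co-cultured library was above the library alone of its subset, but the difference did not pass the test (0.45, SE 0.18, adjusted p = 0.069, 95% interval 0.037 to 0.86). It was called by DESeq2 (adjusted p = 0.028) and without gel 4 (0.0496).

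**Figure D2:**
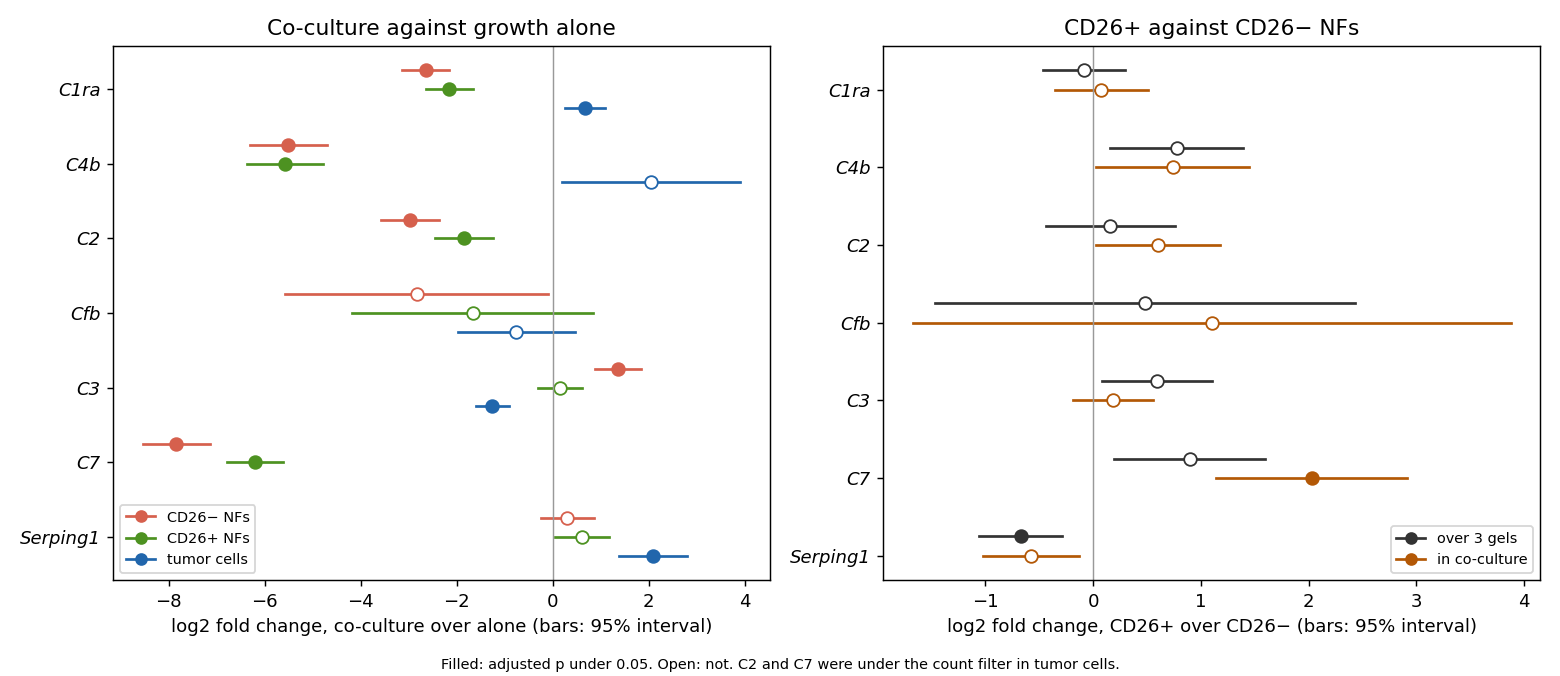
Log2 fold changes with 95% intervals of the 7 complement genes, for co-culture over growth alone (left: CD26- NFs, CD26+ NFs, tumor cells) and for CD26+ over CD26- NFs (right: over 3 gels and in co-culture); filled points have an adjusted p under 0.05. C7 lies at -7.84 and -6.20 and C4b at -5.51 and -5.58 in the NF subsets, while C3 lies at 1.36 in CD26- NFs and at -1.26 in tumor cells.

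Few of the 7 genes were called between the subsets. Over 3 gels 1 gene, Serping1, was called lower in CD26+ than in CD26- NFs, beside 7.53% of 15013 genes called. Serping1 in CD26+ NFs was lower in each gel, at 1284 against 2143 CPM in gel 1, 1670 against 2340 CPM in gel 4 and 2146 against 2699 CPM in gel 5 (-0.67, SE 0.17, adjusted p = 0.045). The ranges of the subsets overlapped across gels, at 1284 to 2146 and 2143 to 2699 CPM. The call was lost without gel 1 (adjusted p = 0.15), gel 4 (0.093) or gel 5 (0.22), and when libraries were scaled by their totals (0.072). C4b was higher in CD26+ NFs in each gel, by 1.93-fold, 2.36-fold and 1.70-fold in gels 1, 4 and 5 (0.78, SE 0.27, adjusted p = 0.12), and was called with gel as a replicate block (adjusted p = 0.013). C3 was 2.93-fold higher in CD26+ NFs in gel 1 but 1.30-fold and 1.26-fold in gels 4 and 5, and was not called (0.59, SE 0.23, adjusted p = 0.14). C1ra (-0.086, SE 0.17) and C2 (0.16, SE 0.27) had intervals on both sides of 0, from -0.47 to 0.29 and from -0.44 to 0.76. Markers differed between the subsets too. Of 8 fibroblast markers Col1a2 and Pdgfrb were called lower in CD26+ NFs (median -0.45). Of 7 epithelial markers tested Cldn3 was called higher (median 0.84), and of 4 endothelial markers Kdr. The part of these differences in the results of the 7 genes was not tested.

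In co-culture alone 1 of the 7 genes, C7, was called higher in CD26+ NFs, beside 6.01% of 16231 genes. C7 had 22 and 35 counts in co-cultured CD26+ NFs (1.41 and 2.47 CPM) and 7 and 7 counts in CD26- NFs (0.424 and 0.403 CPM). The groups did not overlap (2.03, SE 0.41, adjusted p = 0.00997), but the call was lost when any 1 of these 4 libraries was left out (adjusted p = 0.07 to 0.18). Serping1 (-0.58, SE 0.21) and C4b (0.74, SE 0.33) had the same direction as over 3 gels without a call (adjusted p = 0.13 and 0.23), and both were called with the block (0.011 and 0.0043). Of 8 fibroblast markers Col1a1, Col1a2, Col3a1 and Pdgfrb were called lower in CD26+ NFs. Of 8 epithelial markers Cldn3 and Krt7 were higher. The 8 summed to 172 and 317 CPM in CD26+ and to 115 and 139 CPM in CD26- NFs. Of 4 endothelial markers tested Kdr and Tek were higher. The part of these differences was not tested.

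In tumor cells the direction of C3 was the opposite. C3 fell in both lines, from 3212 to 1506 CPM in 13-MCB-17 and from 3971 to 1537 CPM in 10-SJK-221, a 2.36-fold lower mean (-1.26, SE 0.15, adjusted p = 0.00088). Serping1 was called higher, from 1.68 to 6.90 CPM and from 0.763 to 3.65 CPM (2.09, SE 0.31, adjusted p = 0.0023). The share of fibroblast markers in these libraries multiplied by the Serping1 level of the NFs in the same gel came to 11.6 and 7.30 CPM. Less the marker sum of the same line alone, most of which was Pdgfra, it came to 6.91 and 4.66 CPM. From single markers it was 0 to 179 CPM in gel 4 and 0.96 to 240.2 CPM in gel 5, above the measured value for 3 and 4 of the 8, and the part of NFs in this result was not tested. C1ra was higher by 2.05-fold in 13-MCB-17 and 1.28-fold in 10-SJK-221 (0.67, SE 0.18, adjusted p = 0.033), where the product from the marker sum came to 0.143 and 0.0941 CPM and from single markers to at most 2.21 and 3.10 CPM. That call was lost with RLE scaling (adjusted p = 0.051) and with DESeq2 (0.13). C4b had 10 and 2 counts alone and 11 and 50 counts in co-culture and was not called (2.05, SE 0.81, adjusted p = 0.11), and Cfb (17, 12, 7 and 11 counts) was not called either (-0.75, SE 0.53, adjusted p = 0.36). C2 and C7 were below the count filter. Thus 3 of 5 genes tested were called, beside 22.3% of 13197 genes. Without line as a term none of the 3 was called, nor was any gene of the table. Set against the NFs, the response of tumor cells differed for 4 of the 7 genes (C1ra, C3, C4b and C7), beside 20.2% of 17048 genes, in a comparison chosen after seeing the data, and none of the 4 was called without gel 4 or without gel 5 (adjusted p = 0.051 to 1). Between the lines none of the 5 genes was called, beside 14.5% of 13197 genes. Of these, Serping1 came closest, lower in 10-SJK-221 than in 13-MCB-17 in both cultures (-1.06, SE 0.30, unadjusted p = 0.0077, adjusted p = 0.052), and no other of the 5 had an unadjusted p under 0.05. DESeq2 called none of the 5.

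The other genes of the pathway were read from a list of 59 complement genes, the 7 included. Of these, 28 reached 5 CPM in at least 1 library, and 12 had 0 counts in all libraries, among them C1qb and C1qc of the C1 complex and the lectins Mbl1 and Mbl2. In NFs 35 of the 59 could be tested for co-culture against growth alone, of which 7 were higher, 17 lower and 11 not called, beside the 48.8% of 15013 genes called and 22.9% called lower. Their median log2 fold change was -0.61, beside 0.025 over all genes tested.

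Among the initiators C1s1, the protease partner of C1r, went from 504 and 466 CPM in NFs alone to 158 to 265 CPM (-1.18, SE 0.17, adjusted p = 0.00039). C1rb, C1s2 and Masp1, a protease of the lectin pathway, fell too, so that 5 of 8 initiators tested were lower and none higher, beside 22.9% of all genes called lower. All 5 were called in CD26- NFs, whereas in CD26+ NFs C1s2 (-0.69, SE 0.26, adjusted p = 0.057) and Masp1 (-0.091, SE 0.21, adjusted p = 0.76) were not. Fcna, another initiator, was called higher in CD26+ NFs, at 0.514 and 1.13 CPM in co-culture. Of 10 initiators 0 passed the test for a different response of the subsets, beside 0.376% of 16231 genes. C1s1 and C1s2 are near-identical neighbors, as are C1ra and C1rb. Colec12, a collectin receptor, stayed at 315 to 562 CPM in NFs (-0.35, SE 0.19, adjusted p = 0.15) and had at most 0.228 CPM in tumor cells. Of 4 terminal genes tested C6 and C7 were lower, beside 22.9% of all genes. Hc, which encodes C5, did not change beyond error, at 9.69 to 17.4 CPM in NFs (0.089, SE 0.19, adjusted p = 0.72).

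The soluble regulators went different ways. Cfi, the protease that inactivates C3b and C4b, had 41.2 and 27.6 CPM in NFs alone and at most 0.0575 CPM in co-culture. That is below what 3 counts give in these libraries (0.173 to 0.212 CPM). Its fitted change (-10.48, SE 0.37, adjusted p = 1.1e-07) is therefore no bound. Vtn, a plasma protein that binds the terminal complex, went from 16.6 and 15.2 CPM to at most 0.115 CPM. This is below the same 3-count level, so its fitted change (-7.78, SE 0.40, adjusted p = 9.0e-07) is no bound either. Clu, which encodes clusterin, an inhibitor of the terminal complex, rose from 2.79 and 15.9 CPM to 12.3 to 47.4 CPM (1.82, SE 0.39, adjusted p = 0.0037). The share of epithelial markers multiplied by the Clu level of the tumor cells came to 14.2 to 43.6 CPM in these 4 libraries, above the measured Clu in 3 of them. From single markers the product was above the measured value for 1 to 4 of the 8, and the part of tumor cells in this result was not tested.

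Membrane regulators Cd55, Cd46, Cr1l and Csmd1 were lower over both subsets (4 of 6 tested, beside 22.9% of all genes). Of these 4, Csmd1 was called in each subset, Cd46 and Cr1l in CD26- NFs and Cd55 in CD26+ NFs. Susd4, another membrane regulator, was called lower in CD26+ NFs. Of 7 membrane regulators 0 passed the test for a different response of the subsets, beside 0.376% of 16231 genes. Of the receptors, C5ar1, Itgam, Itgax and Itgb2 were higher, all at or below 5.65 CPM in NFs. These were 4 of 5 tested, beside 48.8% of all genes called in either direction and 22.9% called lower. Itgam, Itgax and Itgb2 were called in each subset and C5ar1 in neither. Of the exon bases of Itgam 68.7% also belong to Gm49368 on the same strand, so its level is uncertain. The 8 immune markers, 5 or 6 of them above 0 in each NF library, summed to 13.5 and 16.6 CPM in gel 1 and to 36.3 to 74.2 CPM in the NFs of gels 4 and 5. Of 4 immune markers tested, Cd14, Cd68 and Csf1r were higher in co-culture and Lyz2 was lower, beside 48.8% of all genes called in either direction. Cd68 was at 3.48 and 6.53 CPM alone and 19.6 to 53.5 CPM in co-culture. The 5 endothelial markers summed to 4.35 and 9.76 CPM alone and to 8.06 to 24.5 CPM in co-culture. Of 4 tested, Pecam1 and Cdh5 were higher and Tek was lower, beside the same 48.8% of all genes. The same product with tumor cells was at most 0.398 CPM for these 4 receptors. The sort before culture used CD45 (Ptprc) against immune and CD31 (Pecam1) against endothelial cells. Ptprc had at most 1 count in NFs, while Pecam1 had 0.310 and 1.26 CPM alone and 5.93 to 9.76 CPM in co-culture. The part of immune or endothelial cells in the receptor values was not tested.

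In tumor cells 25 of the 59 genes could be tested, with 4 higher and 4 lower in co-culture, beside 22.3% of 13197 genes called in either direction, and a median of 0.24 beside 0.010 over all genes. Clu rose from 87.0 to 1063 CPM in 13-MCB-17 and from 68.1 to 496 CPM in 10-SJK-221 (3.22, SE 0.18, adjusted p = 3.4e-05). Fcna, a ficolin of the lectin pathway, fell from 13.5 to 1.24 CPM and from 19.8 to 3.82 CPM (-2.83, SE 0.27, adjusted p = 0.00036). Itgb2, the shared chain of the complement receptors CR3 and CR4, fell from 29.4 to 5.26 CPM and from 34.7 to 6.10 CPM (-2.52, SE 0.16, adjusted p = 5.1e-05). The immune markers summed to 313 and 98.0 CPM in 13-MCB-17 and to 115 and 61.9 CPM in 10-SJK-221, alone and in co-culture. Among them Cd68 was called lower and Csf1r higher. The part of immune cells in the Itgb2 result was not tested.

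**Figure D3:**
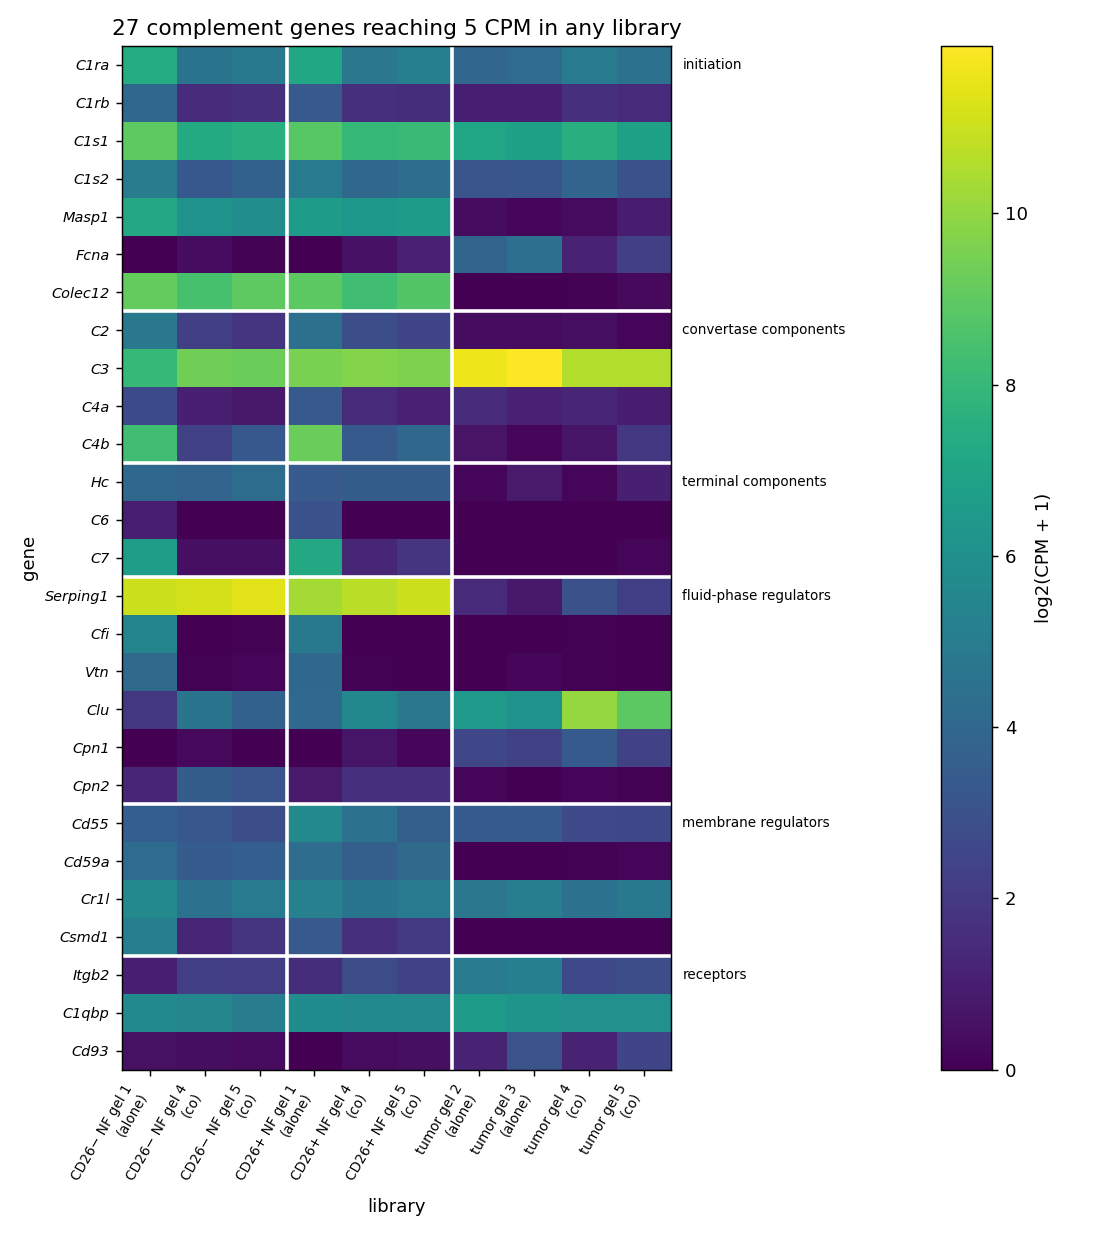
Expression as log2(CPM + 1), by color, of 27 of the 28 complement genes that reached 5 CPM in any library, in rows grouped by role and in columns by library. C4b, C7, Cfi and Vtn are brightest in NFs alone, Colec12, Masp1 and Serping1 are bright in all 6 NF libraries, and Clu is brightest in co-cultured tumor cells (1063 and 496 CPM).

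The 59 genes were also summed per library. The sum was 4695 and 4445 CPM in the NFs of gel 1 and 3572 to 4314 CPM in those of gels 4 and 5. In tumor cells it was 3646 and 4376 CPM alone and 2988 and 2337 CPM in co-culture. Serping1 took 45.7% and 28.9% of the sum in CD26- and CD26+ NFs alone and 46.8% to 62.6% in co-culture. C4b took 6.58% and 13.4% in NFs alone and left the 4 leading genes in every co-cultured NF library. In tumor cells C3 took 88.1% and 90.8% alone and 50.4% and 65.8% in co-culture, where Clu came next at 35.6% and 21.2%.

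**Figure D4:**
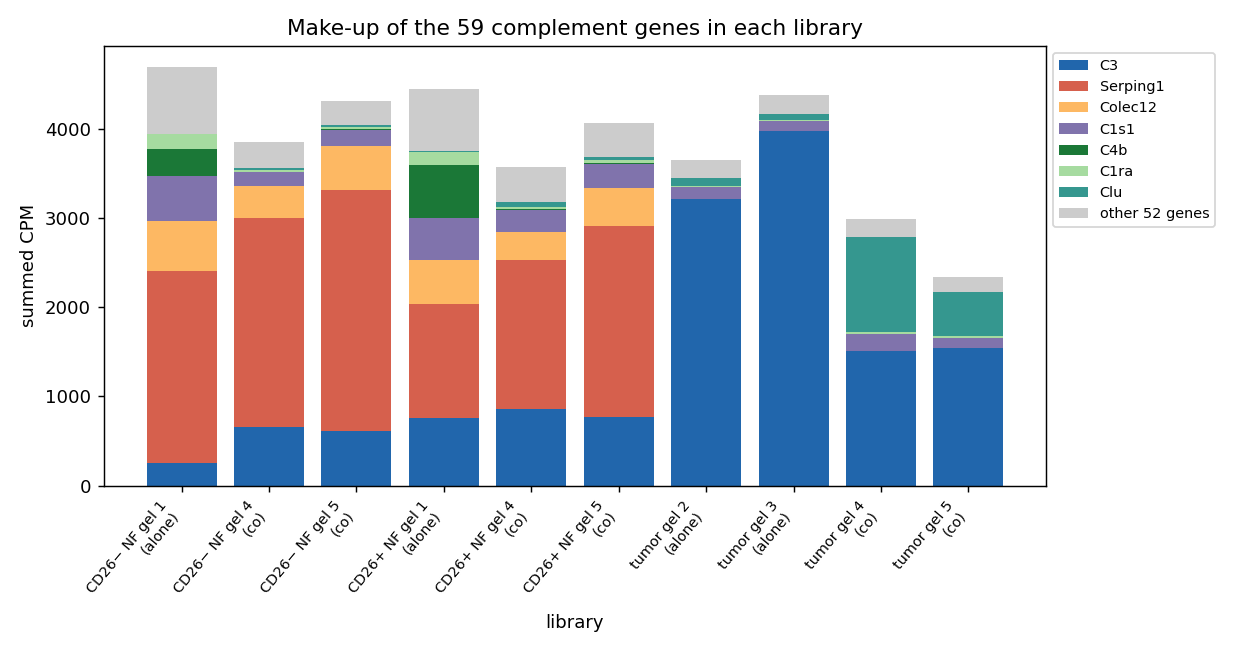
Summed CPM of the 59 complement genes in each of 10 libraries, as stacked bars from 0, with 7 genes in color and the other 52 in gray. Bars reach 2337 to 4695 CPM, Serping1 is the largest piece of each NF bar (28.9% to 62.6%) and C3 of each tumor bar (50.4% to 90.8%), with Clu next in co-cultured tumor cells.

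Genes known to pass on or carry out the induction of complement genes by cytokines were taken as a list of 15 receptors and transcription factors. In NFs 10 of the 15 were lower in co-culture and 2 were higher, beside 48.8% of all genes called and 22.9% called lower, with a median log2 fold change of -0.69 beside 0.025 over all genes. Il6st, the shared receptor chain for the IL-6 family, went from 2460 and 1097 CPM to 203 to 310 CPM (-2.63, SE 0.19, adjusted p = 6.0e-06). Il1r1, the IL-1 receptor, went from 1040 and 636 CPM to 152 to 210 CPM (-2.17, SE 0.13, adjusted p = 1.9e-06). Osmr, Stat3, Irf1, Cebpb, Cebpd, Nfkbia and Tnfrsf1a were lower as well, and Ifngr2 and Rela were higher. Cebpd was called in CD26- NFs and not in CD26+ NFs, and Nfkbia and Rela were called in neither subset taken alone. Of the 15 genes 0 passed the test for a different response of the subsets, beside 0.376% of 16231 genes. In tumor cells 3 of the 15, Osmr, Stat3 and Irf1, were higher in co-culture and none was lower, a share near the 22.3% of all genes called and so no result about the list. There Osmr went from 26.6 to 149 CPM and from 35.1 to 122 CPM (2.11, SE 0.16, adjusted p = 0.00011). These are levels of RNA, and activity of the factors was not measured.

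Across the 10 libraries the genes whose levels followed each complement gene most closely were found by Pearson's r of TMM-scaled log2(CPM + 1) over 10833 genes with a mean of at least 5 CPM. These values are a description, since libraries of 1 cell type share most of their pattern. For Serping1 they were Lox, Cpq and Lama4 (each r = 1.00), for C7 Gm18787, Col6a5 and Sfrp2 (each r = 1.00), and for C4b Gfra1 (0.99), Myd88 (0.98) and Cyp7b1 (0.98). For C1ra they included Ccn5 (0.99) and Il4ra (0.98), for C2 Ddit4l, Fgf10 and Mdk (each 0.99), and for C3 Ccdc61 (0.98), Leng8 (0.97) and Ormdl2 (0.97). Cfb was below the limit. Within the 6 NF libraries C1ra, C2, C4b and C7 followed one another (r of 0.94 to 0.99 for each pair). All 4 fell in co-culture, so these r cannot be told apart from the split between cultures. C3 (r of -0.71 to -0.55) and Serping1 (r of -0.54 to -0.35) had negative r with all 4. In these 6 libraries the leading genes were Jdp2, Scp2 and Cavin1 for C1ra, Kdm4a, Comp and Il16 for C2, and Usf2, Slx1b and Ppt2 for C3. They were Prpf31, Ncbp2 and mt-Nd4 for C4b, Il1rn, Col6a5 and Gm18787 for C7, and Tmcc3, Fam20a and Lbr for Serping1, with r of at least 0.98 in every case.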

How the data were processed

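Raw read counts per gene were deposited by the authors as 1 table of 10 libraries, without normalization. Per the labels, polyA RNA was made into stranded, paired-end libraries, and the submitters' processing notes name HISAT2 2.2.1 and GRCm38. How reads were counted, whether strand was used and which annotation release served are not given in the sources used here. No per-sample column was left unused. Of 55486 gene IDs, 99.5% were in GENCODE M21, from which exon lengths and overlaps came.

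The 7 genes, the gene lists and the tests were chosen with earlier results of these data known. A fixed rule set which genes could be named: the 7 always, listed complement genes reaching 5 CPM, list members past the threshold, and the 3 genes most like each of the 7. Not all genes that the rule allowed were named. C1qb, C1qc, Mbl1, Mbl2, C5ar1, Itgam, Itgax, Cd46 and Susd4, named as well, were chosen after their values were seen, as were Dpp4 and Cdh1 as checks of the labels. Tests used edgeR 4.0.16 in R 4.3.3 (quasi-likelihood, TMM, filterByExpr) on whole tables of genes, with p-values adjusted after Benjamini and Hochberg and a threshold of 0.05. NF comparisons used 6 libraries, with culture and subset as terms or as 4 groups, tumor comparisons used 4 libraries with line and culture as terms, and cell types were compared in 10 libraries of 6 groups. The fits were also run on simulated counts with a set spread and no difference between gels. Such counts cannot show how real gels vary. Each co-culture gel gave 1 library per group, and NFs alone came from 1 gel, so no spread between gels of NFs alone enters. In the NF fit with culture and subset as terms the libraries of a gel counted as separate, and p-values measure the spread between these libraries.

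Gels pair the subsets by design, since CD26- and CD26+ NFs of the same number shared a gel. Their deviations from the group means correlated at r = 0.12 over 17048 genes. Replicates of a group differed by more than counting noise (chi-square per degree of freedom 18.5 to 61.1). Alternatives were RLE scaling, library totals, no filter, a filter of 1 CPM in 2 libraries, DESeq2 1.42.0, an absolute log2 fold change above 2 as in the study's methods, gel as a replicate block, a model without line, and leaving out each replicate. A further item of the tumor genotype and the values of a few genes are not reported here.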

Additional observations from a re-analysis of the deposited data

Results flagged for a closer look

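The response to co-culture differed between NFs and tumor cells for 4 of the 7 genes, beside 20.2% of 17048 genes tested. This comparison was chosen after seeing the data. It sets the change in NFs minus the change in tumor cells on the log2 scale, in edgeR's fit of all 10 libraries. C3 differed by 2.01 (SE 0.22, adjusted p = 0.00075): its mean went from 506 to 724 CPM in NFs and from 3592 to 1522 CPM in tumor cells. C1ra differed by -3.09 (SE 0.31, adjusted p = 0.00048), with 153 and 28.0 CPM in NFs and 15.6 and 25.4 CPM in tumor cells. C4b differed by -7.80 (SE 1.01, adjusted p = 0.0016), with 453 and 9.29 CPM in NFs and 12 and 61 summed counts in tumor cells. C7 differed by -10.00 (SE 2.28, adjusted p = 0.022), a value that is no bound since tumor cells had 0 counts alone and 2 in co-culture. None of the 4 was called without gel 4 or without gel 5 (adjusted p = 0.051 to 1), where no gene of the table was called either.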

How the results depend on the processing

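For the number of the 7 genes called per comparison, 89 alternatives stayed within 1.5 times the reported count, 10 gave fewer and 7 gave more. The falls of C1ra, C2, C4b and C7 in co-cultured NFs held their direction and their calls over both subsets under every alternative with a call by p alone, and missed a log2 fold change above 2 only for C2 in CD26+ NFs. That criterion left 0 genes for the subsets over 3 gels and 1 (Serping1) for culture in tumor cells. Scaling by library totals gave 2 genes for the subsets in co-culture (C4b and C7) and 1 (Serping1) for the lines, and no filter also gave 1 for the lines. It moved the median of all genes from 0.0040 to 0.16 over 3 gels and from 0.011 to 0.18 in co-culture, and C1ra over 3 gels from -0.086 to 0.071. DESeq2 gave 1 gene (C3) for a different response of the subsets. Gel as a replicate block gave 2 genes for the subsets over 3 gels (C4b and Serping1), 3 in co-culture (C4b, C7 and Serping1) and 2 for a different response (C3 and C7), and changed no other call. Without line as a term 0 genes were called for culture in tumor cells.

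Leaving out 1 gel or library at a time gave 0 to 1 genes for the subsets over 3 gels, 0 to 1 for the subsets in co-culture, 2 to 5 for cell type in co-culture and 0 to 5 for culture by cell type, where the lone library left in a group was taken to vary like the others. Directions turned only for values near 0 or from few counts. C1ra ranged from -0.21 to 0.088 over 3 gels, from -0.20 to 0.31 between subsets in co-culture and from -0.084 to 0.78 between cell types in co-culture. C2 ranged from -0.034 to 0.61 over 3 gels. Cfb ranged from -0.26 to 0.55 over 3 gels, from -4.05 to 2.01 in co-culture and from -4.01 to 2.08 for the response of the subsets, for which C4b ranged from -0.56 to 0.69. Tumor comparisons could not be fitted without 1 library, as no residual degrees of freedom remained. The cause of these changes was not tested. Depth limited Cfb throughout, C2 and C4b in tumor cells, and C7 in tumor cells and co-cultured NFs, with at most 50 counts in any of these libraries.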
